A study of Saccharomyces cerevisiae with 12 samples.

Results

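The gene models described here lie wholly inside the interval of another gene model on the opposite strand, so that a transcript of one is antisense to the other. They were taken from the intervals of the count table: models on the nuclear chromosomes, other than those whose names start with YNC, that lie inside a model on the opposite strand and inside none on the same strand, with a mean of at least 10 counts over the 12 libraries. The count table holds 7150 models. Of these, 420 were nested in this way, and 140 of them reached the count minimum. The mean count alone chose the 140 among the nested models. Just inside the minimum lay YBR051W with a mean of 10 counts, YOR200W with 10.2 and YPL197C with 10.6, and just outside it YKL153W with 9.58, YCR081C-A with 9 and YHR070C-A with 8.75. Each nested model was compared with its host, the model that encloses it, or the one with the most counts for the 5 that lie in more than 1. The 140 had 136 hosts, and all 140 passed the low-count filter of the test.

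RNA was sequenced from budding yeast, Saccharomyces cerevisiae, grown to log phase at 30 °C in rich medium with 2% glucose, after depletion of ribosomal RNA. The libraries labelled cyc8 snf2 (n = 4) came from YDB1.7, which carries cyc8::URA3 and snf2::LEU2 together with lys2del0, trp1-del63, met15del0, ura3del0 and his3del200. Those labelled cyc8 (n = 3) came from YAFTCD4, a BY4741 derivative with cyc8::KAN, and those labelled snf2 (n = 2) from FY2083, which is MATa and has snf2::LEU2 in the background that YDB1.7 shares. The wild type (wt, n = 3) was BY4741, of mating type a, with the alleles ura3del0, met15del0, leu2del0 and his3del1. The comparisons cyc8 against wt and cyc8 snf2 against snf2 are therefore made within 1 strain background each and share no library. In the other 3, snf2 against wt, cyc8 snf2 against wt and cyc8 snf2 against cyc8, genotype and background differ together and cannot be told apart. Each genotype is 1 strain. Whether its libraries were grown as separate cultures is not stated in the labels; the spread between them, on which every p-value rests, may be technical only.

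Tup1 and Cyc8 act together as a corepressor without a DNA-binding domain of its own, and repressors such as Mig1, Rox1 and Nrg1 recruit it to their target genes. Snf2 is the catalytic subunit of Swi-Snf, which uses ATP to slide or evict nucleosomes. In the compact yeast genome neighbouring genes on opposite strands often make transcripts that overlap at their ends, and further antisense RNA starts inside genes or at their 3' ends. Much of it is removed by the exosome and by the exonuclease Xrn1, and at a few genes antisense transcription is known to lower the gene it crosses.

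Library totals were 16378131 to 27230568 counts, and levels are given as CPM, counts relative to the library total after TMM scaling between libraries. A count of 0 allows up to 3 counts in a library, which averages 0.165 CPM in the libraries labelled cyc8 snf2, 0.146 in those labelled cyc8, 0.11 in those labelled snf2 and 0.129 in wt, by counting error only. The CYC8 transcript had 53.2 ± 2.58 CPM in the libraries labelled cyc8 snf2 and 59.3 ± 4.72 in those labelled cyc8, against 77.1 ± 6.47 in wt, so it was not lost, and the SNF2 transcript was not lost either. The groups are named below by the labels of their libraries. The marker LEU2 had 269 ± 69.7 CPM in the libraries labelled cyc8 snf2 and 483 ± 21.7 in those labelled snf2, against at most 3 counts in any library labelled cyc8 or wt. URA3 had 18.4 ± 1.24 CPM in the libraries labelled cyc8 snf2 and at most 1 count in any other. HIS3 averaged 79.3 CPM in the libraries labelled cyc8 and 44.2 in wt, against at most 2 counts in any library labelled cyc8 snf2 or snf2. LYS2 averaged 230 and 159 CPM, against at most 7 counts. MET17 had at most 18 counts in any library. The receptor gene STE2 of a cells was present at group means of 138 to 553 CPM, and the alpha-factor gene MF(ALPHA)1 lay at 0.126 to 0.438 CPM. Other mating-type genes were less clear. Among those of a cells, MFA1 averaged 13.2 CPM in the libraries labelled cyc8 snf2, 16.1 in cyc8, 34.85 in snf2 and 266 in wt. BAR1 averaged 6.67, 10.2, 38.5 and 169 CPM and MFA2 518, 765, 210 and 1026 CPM in that order. Among those of alpha cells, group means were 15.6 to 24.2 CPM for SAG1 and 0.298 to 9.23 CPM for STE3. Wild-type replicate 3 stood apart: among the 4766 genes averaging 10 CPM or more, 57 were over 2-fold below both other wt libraries and 18 over 2-fold above them, against 0 to 9 and 0 to 10 in the other libraries labelled wt, cyc8 and cyc8 snf2. The 2 libraries labelled snf2 were not measured this way. By the TMM factor cyc8 replicate 3 stood apart, at 1 against 0.853 and 0.855 in the other libraries labelled cyc8. The hosts GPH1, TMA10, PGM2 and ZNF1 were among those low in wt replicate 3.

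Most of the nesting came from the ends of the count intervals. Of 6018 protein-coding models with a RefSeq gene, 5017 were longer in the count table. The median difference in length was 325 bases over all 6018 and 1003.5 bases over the 120 hosts that could be compared. In RefSeq 63 of the 140 pairs are genes that lie side by side, 39 with the nested gene beyond the 3' end of the host and 24 with it before the 5' end. A further 9 pairs overlap in part, and 2 are nested in RefSeq as well, PHO84 in the non-coding YNCM0001W and NAG1 in IMO32. In 12 pairs the host has no RefSeq entry and in 54 the nested model has none. Of these 54 models, 4 lie wholly and 44 partly inside the RefSeq gene of the host. The centre of the nested model fell in the first of 3 equal parts of the host in 18 pairs, the middle part in 76 and the last in 46.

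**Figure D1:**
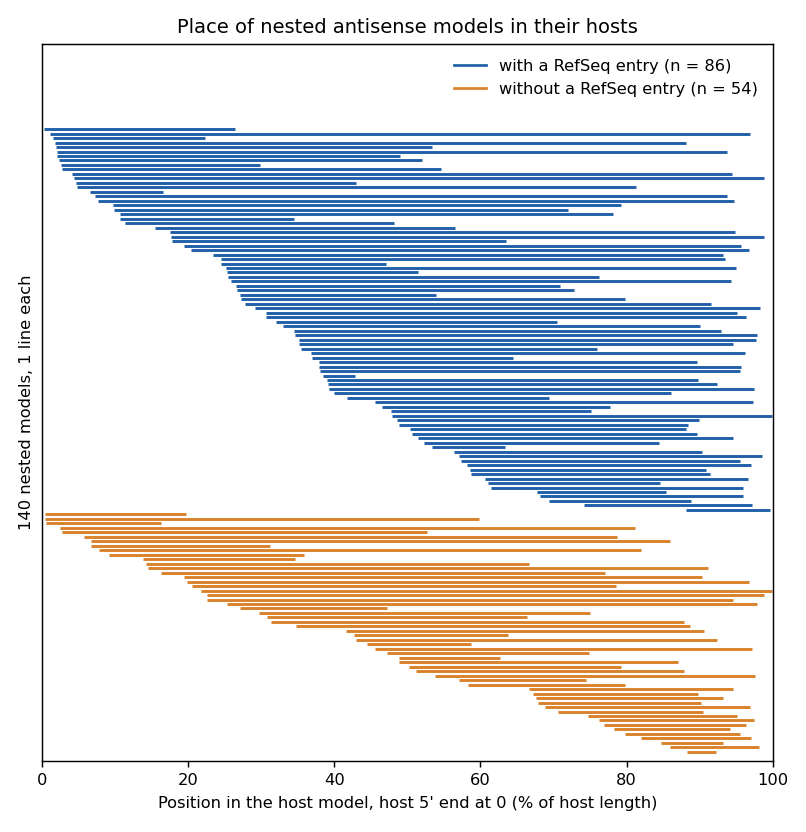
Each line is 1 of the 140 nested models, drawn from its first to its last base as a percentage of the host's length with the 5' end of the host at 0. Blue lines are the 86 models with a RefSeq entry and orange lines the 54 without, and the centres of 76 of the 140 lie in the middle of 3 equal parts of the host.

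The 86 models with a RefSeq entry were longer and more abundant than the 54 without. Their median length was 1066 bases (108 to 3333) and their median level 12.96 CPM (0.563 to 2344), against 436 bases (93 to 2117) and 1.13 CPM (0.459 to 8.01) for the models without. Their hosts had median levels of 23.9 CPM, and those of the 54 models 32.2 CPM. Per length, the median nested model with a RefSeq entry reached 0.866 of its host and the median model without one 0.136. In CPM per kilobase 47 of 140 nested models stood above their host, 41 of the 86 and 6 of the 54. The 5 most abundant nested models were the ribosomal stalk gene RPP2B (2344 CPM), the ribosomal protein genes RPL14A (2075 CPM) and RPL13A (771 CPM), the chaperone gene SSA1 (791 CPM) and the phosphate transporter gene PHO84 (326 CPM).

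Of the 54 models without a RefSeq entry, 32 run from an ATG to a stop codon over their whole interval, as a small open reading frame would. A pair of them is shown: the first changed in the opposite direction to its host, and the second lies in one of the strongest hosts. The first is in CAR2, which encodes ornithine transaminase of arginine breakdown, at chrXII:1012459-1012686 on the minus strand, and the second in the ribosomal protein gene RPS2 at chrVII:277634-277864 on the minus strand (build R64, sequence of the RefSeq genome). Capitals mark the first and the last codon.
YLR437C-A: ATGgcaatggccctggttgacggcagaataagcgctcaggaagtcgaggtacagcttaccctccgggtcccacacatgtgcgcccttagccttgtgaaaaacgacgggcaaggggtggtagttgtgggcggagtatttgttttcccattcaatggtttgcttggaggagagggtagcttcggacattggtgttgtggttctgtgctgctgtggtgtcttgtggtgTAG
YGL123C-A: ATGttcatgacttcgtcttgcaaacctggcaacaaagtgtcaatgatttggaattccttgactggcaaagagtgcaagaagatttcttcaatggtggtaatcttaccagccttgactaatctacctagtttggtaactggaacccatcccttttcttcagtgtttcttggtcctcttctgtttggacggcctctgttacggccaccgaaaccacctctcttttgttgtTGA

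A model was called when its edgeR adjusted p was below 0.05 over the 6171 genes tested and its log2 fold change at least 1 in size. In cyc8 against wt, which asks how nested models respond where the corepressor gene is mutated, 30 of 140 nested models (21.4%) rose and 17 (12.1%) fell, where 10.4% of all genes tested rose and 3.48% fell. The same change in the other background, cyc8 snf2 against snf2, had 30 that rose and 4 that fell (all genes: 9.12% and 3.08%). In snf2 against wt 9 rose and 21 fell (all genes: 4.25% and 5.40%), and in cyc8 snf2 against wt 32 rose and 10 fell (all genes: 9.71% and 3.97%). Between cyc8 snf2 and cyc8, 5 rose and 9 fell (all genes: 0.924% and 3.01%). The median log2 fold change of the 140 was -0.10 in cyc8 against wt (all genes -0.05), -0.07 in snf2 against wt (0.02), -0.02 in cyc8 snf2 against wt (-0.03), 0.28 in cyc8 snf2 against snf2 (-0.03) and 0.02 in cyc8 snf2 against cyc8 (0.01). A model could pass the count minimum through the group where it is high. Of the 30 that rose in cyc8 against wt 16 had a mean of at least 10 counts in wt too. Of the 30 in cyc8 snf2 against snf2 18 had one in the libraries labelled snf2, and of the 32 in cyc8 snf2 against wt 16 had one in wt. In all, 67 of the 140 were called in at least 1 of these comparisons or in the interaction and 73 in none. The same count over all genes was not made, so the 67 cannot be set against a background. Leaving out 1 library moved some of these counts by over 1.5 times: without snf2 replicate 1 the falls in snf2 against wt numbered 13 and those in cyc8 snf2 against snf2 2. The falls in cyc8 snf2 against snf2 numbered 1 without snf2 replicate 2 and 2 without cyc8 snf2 replicate 4. The 5 rises in cyc8 snf2 against cyc8 became 2 without cyc8 replicate 2, cyc8 replicate 3, cyc8 snf2 replicate 2 or cyc8 snf2 replicate 4, and 3 without cyc8 snf2 replicate 3.

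The clearest case was ATR2, which encodes a boron transporter related to the multidrug transporters and which lies beyond the 3' end of PRM15, a phosphoribomutase gene (chromosome XIII, 824610 to 826659, minus strand; host interval 822723 to 826662). ATR2 had 139, 162, 136 and 151 CPM in the libraries labelled cyc8 snf2, 171, 149.8 and 176 in those labelled cyc8, 0.489 and 0.615 in those labelled snf2 and 0.481, 1.05 and 0.668 in wt. The groups labelled cyc8 snf2 and cyc8 stood apart from the other groups with no overlap, and the libraries labelled snf2 overlapped those of wt. The log2 fold change was 7.84 ± 0.18 (edgeR adjusted p = 3.35e-13) in cyc8 against wt, a 229-fold difference, and 8.05 ± 0.21 (edgeR adjusted p = 5.2e-12) in cyc8 snf2 against snf2. In bulk RNA, more cells that make a transcript and more of it per cell cannot be told apart. The host was not called. PRM15 had 47.4, 36.6, 41.3 and 33 CPM in the libraries labelled cyc8 snf2, 45.2, 47.1 and 51.9 in those labelled cyc8, 39.6 and 38.6 in those labelled snf2 and 51.3, 55.7 and 42 in wt. Here the libraries labelled cyc8 overlapped wt and those labelled snf2 lay within the range of those labelled cyc8 snf2, and the log2 fold change of PRM15 was -0.05 ± 0.13 in cyc8 against wt and 0.02 ± 0.14 in cyc8 snf2 against snf2. The ratio of ATR2 to PRM15, tested with limma on log2 CPM, differed by 7.75 ± 0.22 (limma adjusted p = 7.23e-14) in cyc8 against wt.

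The 250 bases before the ATR2 interval lie at chrXIII:826660-826909 on the minus strand, begin at the 3' end of the PRM15 interval and hold 1 word of the hypoxic repressor Rox1. They are shown with those before PEX18, at chrVIII:420080-420329 on the minus strand. Both genes are among the 19 nested models that rose in cyc8 against wt and in cyc8 snf2 against snf2. The PEX18 window lies almost wholly inside the TDA11 interval, and capitals mark the word ATTGTT.
ATR2: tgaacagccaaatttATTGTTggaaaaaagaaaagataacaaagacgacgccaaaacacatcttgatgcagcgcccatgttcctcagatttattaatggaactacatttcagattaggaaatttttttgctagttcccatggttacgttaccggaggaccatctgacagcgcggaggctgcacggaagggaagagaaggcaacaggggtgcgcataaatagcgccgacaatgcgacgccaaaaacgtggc
PEX18: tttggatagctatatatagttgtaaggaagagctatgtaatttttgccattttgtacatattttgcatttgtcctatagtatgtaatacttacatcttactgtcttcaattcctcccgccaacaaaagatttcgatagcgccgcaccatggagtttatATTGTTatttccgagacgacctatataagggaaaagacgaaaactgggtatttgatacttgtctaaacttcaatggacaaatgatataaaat

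These words are common. Rox1 was searched as ATTGTT, Nrg1 as CCCTC, and the glucose repressor Mig1 as GCGGGG or the same word beginning with GT, CC or CT, all on both strands, where words of Nrg1 and Mig1 may share bases. The 250 bases before the model held them in 30.0%, 23.3% and 16.7% of the 30 nested models that rose in cyc8 against wt, in that order. Among all 140 the shares were 24.3%, 21.4% and 10.7%, and among all 7094 nuclear models 28.8%, 19.9% and 11.7%. A match is a description of the sequence and not a bound site.

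A pair of peroxisomal genes rose in the same comparisons. PEX18 encodes a receptor that helps to import proteins into peroxisomes, and POT1 encodes 3-ketoacyl-CoA thiolase, a peroxisomal enzyme of fatty acid oxidation. PEX18 lies beyond the 3' end of TDA11 (chromosome VIII, 419150 to 420079, minus strand) and had 4, 1.76, 5.05 and 3.41 CPM in the libraries labelled cyc8 snf2, 4, 6.14 and 6.58 in those labelled cyc8, 0.419 and 0.384 in those labelled snf2 and 0.361, 0.0476 and 0.0835 in wt. Every library labelled cyc8 snf2 or cyc8 exceeded every other library. Its log2 fold change was 4.99 ± 0.51 (edgeR adjusted p = 3.66e-06) in cyc8 against wt, 6.27 without wt replicate 1, and 3.11 ± 0.51 (edgeR adjusted p = 0.000261) in cyc8 snf2 against snf2.

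POT1 lies beyond the 3' end of SMU2 (chromosome IX, 40080 to 41501, minus strand) and had 1.76, 1.31, 2.17 and 1.51 CPM in the libraries labelled cyc8 snf2, 2.75, 3.82 and 3.87 in those labelled cyc8, 0.489 and 0.0768 in those labelled snf2 and 0.241, 0.19 and 0.167 in wt. Those labelled cyc8 snf2 and cyc8 again exceeded all others, those labelled cyc8 lying above those labelled cyc8 snf2 and no overlap between them. It rose by 4.09 ± 0.42 (edgeR adjusted p = 2.63e-06) in cyc8 against wt and by 2.50 ± 0.46 (edgeR adjusted p = 0.000554) in cyc8 snf2 against snf2. Against snf2, the cyc8 snf2 value was 4.36 without snf2 replicate 1 and 1.78 without snf2 replicate 2. Neither host passed the threshold: TDA11 differed by -0.16 and SMU2 by -0.29 on the log2 scale in cyc8 against wt.

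YFL051C rose with its host but far more. It lies beyond the 3' end of ZNF1, which encodes a zinc-cluster transcription factor of respiratory growth (chromosome VI, 30058 to 30540, minus strand; host interval 28212 to 30938). YFL051C had 2.02, 2.76, 2.94 and 3.19 CPM in the libraries labelled cyc8 snf2, 40.1, 30.6 and 34.8 in those labelled cyc8, 1.12 and 1.07 in those labelled snf2 and 0.361, 0 and 0.25 in wt. The 4 groups did not overlap, in the order cyc8, cyc8 snf2, snf2 and wt. Its log2 fold change was 7.32 ± 0.33 (edgeR adjusted p = 4.54e-10) in cyc8 against wt and 2.33 ± 0.49 (edgeR adjusted p = 0.00238) in snf2 against wt, values that without wt replicate 1 were 7.98 and 2.99. It rose by 1.31 ± 0.32 (edgeR adjusted p = 0.00407) in cyc8 snf2 against snf2 and fell by 3.69 ± 0.21 on the log2 scale in cyc8 snf2 against cyc8 (edgeR adjusted p = 2.99e-08). ZNF1 had 75.9, 63.6, 67.8 and 55.5 CPM in the libraries labelled cyc8 snf2, 77.9, 75.1 and 78.6 in those labelled cyc8, 14 and 14.9 in those labelled snf2 and 16.3, 14.3 and 5.34 in wt. The host rose by 2.69 ± 0.30 (edgeR adjusted p = 2.3e-05) in cyc8 against wt and differed by -0.23 ± 0.25 in cyc8 snf2 against cyc8, and its wt replicate 3 lay below the other wt libraries. The ratio of YFL051C to ZNF1 differed by -3.41 ± 0.58 (limma adjusted p = 0.00169) in cyc8 snf2 against cyc8.

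**Figure D2:**
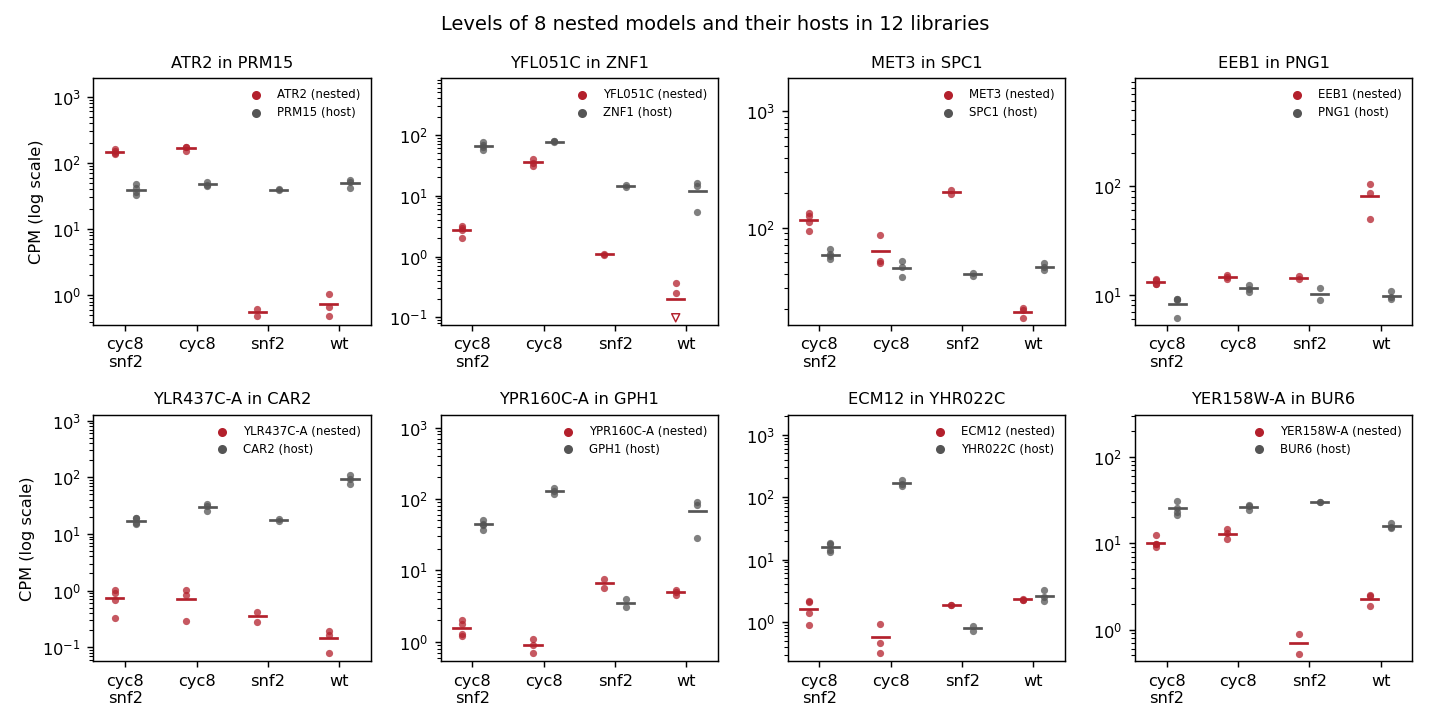
Dots are the CPM (log scale) of 8 nested models (red) and their hosts (grey) in each library, grouped by genotype label, and bars are group means, with an open triangle at the lower edge for a library without a count. ATR2 lies at 136 to 176 CPM in the groups labelled cyc8 snf2 and cyc8 and at 0.481 to 1.05 CPM in the others, while PRM15 stays between 33.0 and 55.7 CPM.

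TDA8 and YAL065C both lie in YAL064W-B on chromosome I, and 12% and 47.0% of their 50-base words recur elsewhere in the genome, so their counts are uncertain. TDA8 had 1.82, 1.76, 1.21 and 2.22 CPM in the libraries labelled cyc8 snf2, 5.89, 3.82 and 4.88 in those labelled cyc8, 0.0698 and 0 in those labelled snf2 and 0, 0 and 0.0417 in wt. Summed over libraries it had 298 counts in the libraries labelled cyc8 against 1 in wt, a ratio of CPM of 333.5 with an exact counting interval of 59.4 to 1.32e+04, and 130 counts in those labelled cyc8 snf2 against 2 in those labelled snf2, a ratio of 48.5 (13.2 to 405). YAL065C had 198 counts in the libraries labelled cyc8 against 3 in wt, a ratio of 73.8 (24.9 to 361). These intervals cover counting error only. The shared host lay at 8.96 ± 0.991 CPM in the libraries labelled cyc8 snf2, 7.63 ± 0.836 in those labelled cyc8, 12.5 ± 1 in those labelled snf2 and 8.06 ± 1.75 in wt (SD, n = 4, 3, 2 and 3) and was called in none of the comparisons.

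PAU2, a seripauperin gene of the family that responds to a lack of oxygen, has 19.3% repeated words and lies beyond the 3' end of TCA17, a gene of vesicle tethering. PAU2 had 3.58, 3.37, 2.3 and 3.95 CPM in the libraries labelled cyc8 snf2, 6.81, 6.18 and 6.17 in those labelled cyc8, 3.91 and 5.45 in those labelled snf2 and 0.441, 0.238 and 0.543 in wt. All mutant libraries exceeded all wt libraries. It rose by 3.93 ± 0.28 (edgeR adjusted p = 6.57e-08) in cyc8 against wt and by 3.48 ± 0.30 (edgeR adjusted p = 1.33e-06) in snf2 against wt, and differed by -0.49 ± 0.22 (edgeR adjusted p = 0.0838) in cyc8 snf2 against snf2.

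In the pair PXP3 and PAU13 the host, another seripauperin gene, moved more than the model inside it. PAU13 had 47.5, 53.6, 48.3 and 49.6 CPM in the libraries labelled cyc8 snf2, 3595, 3056 and 2800 in those labelled cyc8, 0.838 and 1.07 in those labelled snf2 and 0.882, 0.761 and 0.417 in wt. PXP3, with 24.4% repeated words, had 1.04, 1.61, 1.28 and 1.84 CPM in the libraries labelled cyc8 snf2, 0.629, 1.12 and 1.1 in those labelled cyc8, 0.209 and 0.269 in those labelled snf2 and 0.0802, 0.0951 and 0.167 in wt. Both were high in the libraries labelled cyc8 snf2 and cyc8 with no overlap with the other groups, but the libraries labelled cyc8 had the most PAU13 and those labelled cyc8 snf2 the highest mean of PXP3. In cyc8 against wt PAU13 rose by 12.15 ± 0.20 (edgeR adjusted p = 3.34e-14) and PXP3 by 3.02 ± 0.47 (edgeR adjusted p = 0.000136), so that the ratio of PXP3 to PAU13 fell by 9.71 ± 0.44 on the log2 scale (limma adjusted p = 2.07e-11).

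YPS3 and SET6 were low in the libraries labelled snf2 and high in those labelled cyc8. YPS3 encodes a yapsin, an aspartic protease of the cell surface, and its host YLR120W-A has no RefSeq entry (chromosome XII, 388601 to 390321, minus strand). YPS3 had 76.3, 104, 113 and 116 CPM in the libraries labelled cyc8 snf2, 289, 259 and 214 in those labelled cyc8, 20.5 and 18.4 in those labelled snf2 and 43.9, 41.4 and 52.4 in wt. The 4 groups did not overlap. It rose by 2.47 ± 0.16 (edgeR adjusted p = 7.54e-08) in cyc8 against wt and by 2.39 ± 0.19 (edgeR adjusted p = 7.44e-07) in cyc8 snf2 against snf2, and fell by 1.24 ± 0.19 on the log2 scale in snf2 against wt (edgeR adjusted p = 0.000264). SET6, a gene with a SET domain inside the autophagy gene ATG29, had 2.54, 3.57, 3.19 and 2.81 CPM in the libraries labelled cyc8 snf2, 7.61, 3.78 and 5.43 in those labelled cyc8, 0.349 and 0.806 in those labelled snf2 and 1.4, 1.71 and 1.29 in wt. Its libraries labelled snf2 lay below all others, with a log2 fold change of -1.35 ± 0.41 (edgeR adjusted p = 0.02) in snf2 against wt and 1.92 ± 0.29 (edgeR adjusted p = 9.97e-05) in cyc8 against wt, and ATG29 was called in neither (-0.27 and -0.26).

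MET3 encodes ATP sulfurylase, the first enzyme of sulfate assimilation, and lies beyond the 3' end of SPC1, a signal peptidase gene (chromosome X, 456142 to 457903, plus strand; host interval 454730 to 458592). MET3 had 112, 127, 134 and 92.7 CPM in the libraries labelled cyc8 snf2, 86.3, 49.4 and 51.1 in those labelled cyc8, 212 and 196 in those labelled snf2 and 19.6, 20.4 and 16.5 in wt. The libraries labelled snf2 were highest and wt lowest, and the groups did not overlap. It rose by 3.44 ± 0.23 (edgeR adjusted p = 5.06e-07) in snf2 against wt, by 1.72 ± 0.21 (edgeR adjusted p = 3.73e-05) in cyc8 against wt and by 2.63 ± 0.21 (edgeR adjusted p = 7.79e-07) in cyc8 snf2 against wt. SPC1 was called in none of the comparisons and lay at 58.5 ± 5.01 CPM in the libraries labelled cyc8 snf2, 44.9 ± 7.03 in those labelled cyc8, 39.7 ± 1.72 in those labelled snf2 and 46.1 ± 3.35 in wt.

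EEB1, whose enzyme makes fatty acid ethyl esters, went the other way. It lies beyond the 3' end of PNG1, a peptide N-glycanase gene (chromosome XVI, 367962 to 369543, minus strand). EEB1 had 12.7, 12.6, 13.6 and 13.9 CPM in the libraries labelled cyc8 snf2, 15.2, 14.7 and 14.1 in those labelled cyc8, 14 and 14.8 in those labelled snf2 and 86.7, 105 and 49.4 in wt. All mutant libraries lay below all wt libraries, and the 3 mutant groups lay close together. It fell by 2.61 ± 0.20 on the log2 scale in cyc8 snf2 against wt (edgeR adjusted p = 3.49e-07), by 2.45 ± 0.21 in cyc8 against wt (edgeR adjusted p = 1.47e-06) and by 2.48 ± 0.25 in snf2 against wt (edgeR adjusted p = 1.09e-05). Between cyc8 snf2 and snf2 it differed by -0.13 ± 0.23, and PNG1 differed by 0.22 in cyc8 against wt and 0.05 in snf2 against wt.

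Other nested genes changed at lower levels. YOL085C, inside YOL085W-A, had 1.87, 1.51, 2.36 and 0.974 CPM in the libraries labelled cyc8 snf2, 1.43, 2.53 and 3.41 in those labelled cyc8, 0.0698 and 0 in those labelled snf2 and 0.281, 0.0476 and 0.0417 in wt. Every library labelled cyc8 snf2 or cyc8 exceeded all others. It rose by 4.22 ± 0.59 (edgeR adjusted p = 5.65e-05) in cyc8 against wt, which was 5.63 without wt replicate 1, and in cyc8 snf2 against snf2 121 counts stood against 2, a ratio of CPM of 45.1 (exact counting interval 12.2 to 377). YEL067C rose with its host HPA3, an acetyltransferase gene. YEL067C had 0.623, 1.1, 1.66 and 0.974 CPM in the libraries labelled cyc8 snf2, 4.29, 4.42 and 2.44 in those labelled cyc8, 0.279 and 0.346 in those labelled snf2 and 0.361, 0.38 and 0.417 in wt. HPA3 had 48.2, 62.2, 55.6 and 62.9 CPM in the libraries labelled cyc8 snf2, 81.5, 86.3 and 67.8 in those labelled cyc8, 48.9 and 48.4 in those labelled snf2 and 20.1, 17.6 and 24.3 in wt. Those labelled cyc8 were highest in both, and in HPA3 the libraries labelled snf2 also exceeded wt. YEL067C rose by 3.25 ± 0.36 (edgeR adjusted p = 6.2e-06) and HPA3 by 1.92 ± 0.14 (edgeR adjusted p = 5.22e-08) in cyc8 against wt.

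NFG1, inside YLR041W, had 2.96, 4.97, 3.39 and 3.68 CPM in the libraries labelled cyc8 snf2, 2.58, 1.85 and 1.79 in those labelled cyc8, 4.36 and 3.26 in those labelled snf2 and 8.42, 6.42 and 16.6 in wt. All mutant libraries lay below all wt libraries, and wt replicate 3 was the highest. It fell by 2.36 ± 0.35 on the log2 scale in cyc8 against wt (edgeR adjusted p = 0.000126), and its falls of 1.48 ± 0.30 in cyc8 snf2 against wt (edgeR adjusted p = 0.00126) and 1.46 ± 0.36 in snf2 against wt (edgeR adjusted p = 0.00735) were not called without wt replicate 3, at -0.98 and -0.96. The call in snf2 against wt was also lost without snf2 replicate 2, at -1.27 (edgeR adjusted p = 0.088). VPS24, a gene of endosomal sorting inside NFU1, had 0.986, 1.41, 0.767 and 0.974 CPM in the libraries labelled cyc8 snf2, 2.17, 2.19 and 2.07 in those labelled cyc8, 0.873 and 1.23 in those labelled snf2 and 1.04, 1.09 and 0.751 in wt. Its libraries labelled cyc8 exceeded all others. It rose by 1.16 ± 0.26 (edgeR adjusted p = 0.0025) in cyc8 against wt and fell by 1.03 ± 0.25 in cyc8 snf2 against cyc8 (edgeR adjusted p = 0.0105), a call lost without cyc8 snf2 replicate 3 (-0.93).

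Nested models were then set beside their hosts. Of 139 pairs with both partners tested in cyc8 against wt, 36 had a call of the nested model only, 9 of the host only, 8 rose together, 3 were called in opposite directions and 83 had no call. Both partners were thus called in 11 pairs (7.91%) and 1 partner alone in 45 (32.4%), where both were called in 3.26% and 1 alone in 15.3% of 1841 pairs of overlapping genes on opposite strands. For cyc8 snf2 against snf2 the nested model alone was called in 28 pairs, the host alone in 11, both rose in 5, 1 pair went in opposite directions and 94 had no call. These are 4.32% with both and 28.1% with 1 partner called, against 2.55% and 15.3% of the 1841. Both fell in 0 pairs of any comparison by edgeR and by DESeq2. At an unadjusted p below 0.05 with no minimum of change, edgeR had 9 such pairs in cyc8 against wt and 11 in snf2 against wt. It had 8 in cyc8 snf2 against wt, 9 in cyc8 snf2 against snf2 and 1 in cyc8 snf2 against cyc8. The 1841 pairs were not counted by direction or at this unadjusted rule, so the counts by direction have no background. The host was called lower in only 2 of the 139 pairs in cyc8 against wt and 8 in snf2 against wt. This limits how many pairs could fall together. Of the 135 distinct hosts tested 18 (13.3%) rose and 2 (1.48%) fell in cyc8 against wt (all genes: 10.4% and 3.48%), and 14 (10.4%) rose and 3 (2.22%) fell in cyc8 snf2 against snf2 (all genes: 9.12% and 3.08%). The ratio of nested model to host was called in 53 pairs (38.1%) in cyc8 against wt, where 18.6% of the 1841 pairs were called, and in 33 pairs (23.7%) in cyc8 snf2 against snf2, where 17.3% were. It was called in 40 pairs (28.8%) in snf2 against wt, 46 (33.1%) in cyc8 snf2 against wt and 25 (18%) in cyc8 snf2 against cyc8. Of the 1841 pairs 14.3%, 18.6% and 6.90% were called in these comparisons. The 1841 pairs were held only to the low-count filter and not to the count minimum of the nested models. Correlations of the log2 fold changes of nested model and host were taken across the 139 pairs, over the same libraries. Pearson values were 0.107 in cyc8 against wt, 0.09 in cyc8 snf2 against snf2 and -0.298 in snf2 against wt. They were 0.05 in cyc8 snf2 against wt and -0.246 in cyc8 snf2 against cyc8. Spearman values were 0.13, 0.212, -0.024, 0.229 and -0.183 in this order.

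**Figure D3:**
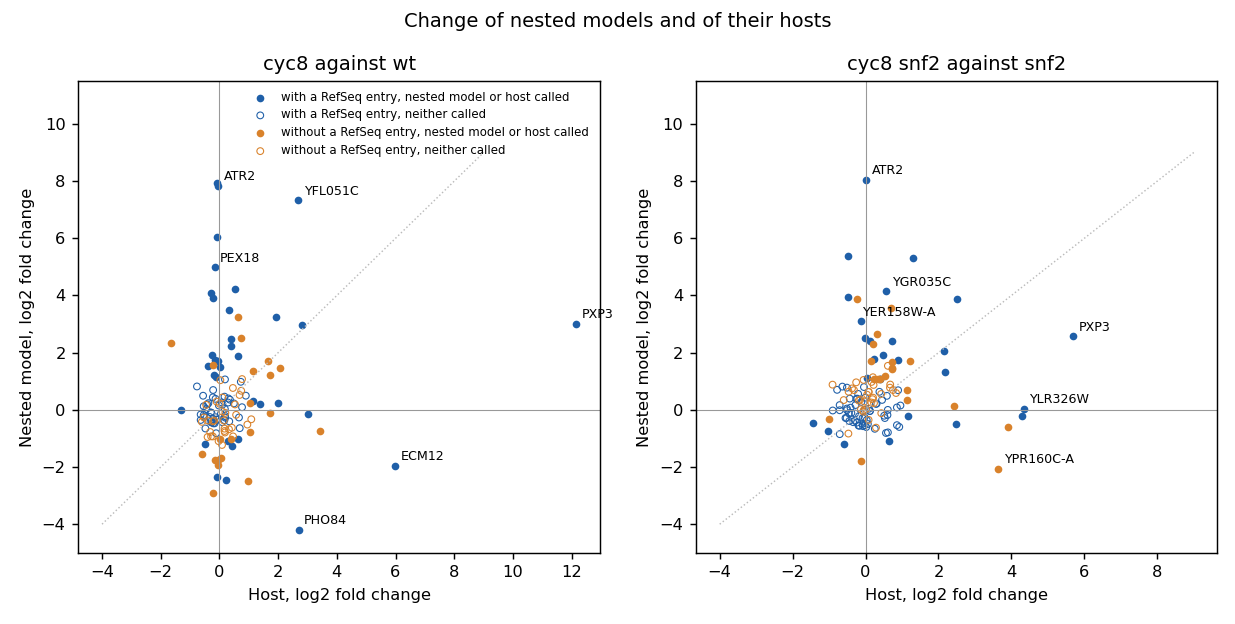
Each point is 1 of 139 pairs, with the log2 fold change of the host on the horizontal axis and of the nested model on the vertical axis, in cyc8 against wt (left) and in cyc8 snf2 against snf2 (right). The dotted line marks equal change, filled points have a call of either partner, and most filled points lie along 1 of the axes, with ATR2 at 7.84 and its host at -0.05 in the left panel.

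The 8 pairs that rose together in cyc8 against wt were YFL051C and ZNF1, PXP3 and PAU13, YEL067C and HPA3, HHY1 and SOM1, YIR017W-A and MET28, YDL221W and FMP45, YGR176W and ATF2, and YOR379C and AMF1. HHY1 lies before the 5' end of SOM1, a gene of the mitochondrial inner membrane peptidase. HHY1 had 1.5, 1.81, 2.75 and 1.79 CPM in the libraries labelled cyc8 snf2, 1.6, 1.72 and 1.47 in those labelled cyc8, 0.175 and 0.0768 in those labelled snf2 and 0.16, 0.19 and 0.25 in wt. Its host SOM1 had 56.5, 52.1, 55 and 46.6 CPM in the libraries labelled cyc8 snf2, 65.1, 59.5 and 43.9 in those labelled cyc8, 9.53 and 8.99 in those labelled snf2 and 7.9, 7.28 and 8.81 in wt. In both, the libraries labelled cyc8 snf2 and cyc8 exceeded all others. HHY1 rose by 2.96 ± 0.37 (edgeR adjusted p = 1.91e-05) and SOM1 by 2.81 ± 0.14 (edgeR adjusted p = 1.88e-09) in cyc8 against wt, and by 3.87 ± 0.43 (edgeR adjusted p = 8.8e-06) and 2.50 ± 0.16 (edgeR adjusted p = 3.15e-08) in cyc8 snf2 against snf2, where HHY1 was 4.57 without snf2 replicate 1. The ratio of HHY1 to SOM1 differed by -0.24 ± 0.34 (limma adjusted p = 0.599) in cyc8 against wt and did not pass the threshold.

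In 6 pairs the nested model and the host were called in opposite directions in at least 1 comparison. PHO84 had 1.15 to 2.59 CPM in the libraries labelled cyc8 snf2, 31.3 to 118 in those labelled cyc8 and 0.999 and 1.22 in those labelled snf2, against 1104 to 1426 in wt, while its host YNCM0001W had 16.4 to 18.5, 9.67 to 10.6, 24.3 and 26.5, against 1.25 to 2.12 in the same order. PHO84 fell and YNCM0001W rose in all 3 mutant groups against wt, with log2 fold changes of -9.33 and 3.50 in cyc8 snf2 against wt, -4.19 and 2.70 in cyc8 against wt and -10.11 and 4.02 in snf2 against wt, and with PHO84 at -4.84 in cyc8 against wt without cyc8 replicate 1.

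ECM12 and its host YHR022C overlap in part in RefSeq. ECM12 had 0.882, 1.41, 2.11 and 2.17 CPM in the libraries labelled cyc8 snf2, 0.458, 0.945 and 0.322 in those labelled cyc8, 1.89 and 1.88 in those labelled snf2 and 2.29, 2.23 and 2.38 in wt. Its host YHR022C had 13.4, 14.2, 18.1 and 17.6 CPM in the libraries labelled cyc8 snf2, 187, 152 and 163 in those labelled cyc8, 0.873 and 0.73 in those labelled snf2 and 3.21, 2.14 and 2.55 in wt. The libraries labelled cyc8 had the most YHR022C and, on average, the least ECM12, which overlapped with those labelled cyc8 snf2. In cyc8 against wt ECM12 fell by 1.96 ± 0.38 on the log2 scale (edgeR adjusted p = 0.000813) and by 2.56 without cyc8 replicate 2, while YHR022C rose by 5.98 ± 0.17 (edgeR adjusted p = 3.04e-12). In cyc8 snf2 against cyc8 ECM12 rose by 1.46 ± 0.38 (edgeR adjusted p = 0.0176), a call lost without cyc8 replicate 1, cyc8 replicate 3 or cyc8 snf2 replicate 4, while YHR022C fell by 3.40 ± 0.13 (edgeR adjusted p = 3.2e-10). The ratio to the host was called in all 5 comparisons for ECM12, YLR326W, YMR244W and YPR160C-A.

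YPR160C-A lies in GPH1, the glycogen phosphorylase gene (chromosome XVI, 862423 to 863882, minus strand), and has no RefSeq entry. YPR160C-A had 1.3, 2.01, 1.79 and 1.19 CPM in the libraries labelled cyc8 snf2, 1.09, 0.902 and 0.691 in those labelled cyc8, 5.62 and 7.49 in those labelled snf2 and 4.97, 5.37 and 4.47 in wt. Its host GPH1 had 36.9, 43.6, 45 and 50.9 CPM in the libraries labelled cyc8 snf2, 130.2, 118 and 143 in those labelled cyc8, 4.01 and 3.03 in those labelled snf2 and 89.5, 83.3 and 28.6 in wt. The libraries labelled snf2 had the least GPH1 and the most YPR160C-A. YPR160C-A fell by 2.06 ± 0.22 on the log2 scale in cyc8 snf2 against snf2 (edgeR adjusted p = 6.29e-06), where GPH1 rose by 3.64 ± 0.45 (edgeR adjusted p = 8.12e-05), and by 2.47 ± 0.24 in cyc8 against wt (edgeR adjusted p = 1.9e-06). There GPH1 differed by 0.96 ± 0.33 (edgeR adjusted p = 0.0326), just under the minimum of change, and passed it without wt replicate 1 (1.22), wt replicate 2 (1.14) or cyc8 replicate 2 (1.03). In snf2 against wt GPH1 fell by 4.24 ± 0.47 (edgeR adjusted p = 5.09e-05) and YPR160C-A differed by 0.41 ± 0.21 (edgeR adjusted p = 0.157).

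In CAR2, YLR437C-A, whose sequence is given above, was the higher and the host the lower in the mutants. YLR437C-A had only 0.674, 0.904, 1.02 and 0.325 CPM in the libraries labelled cyc8 snf2, 0.286, 1.03 and 0.829 in those labelled cyc8, 0.279 and 0.422 in those labelled snf2 and 0.0802, 0.19 and 0.167 in wt, from 2 to 24 counts per library. Its host CAR2 had 14.9, 15.4, 18.9 and 19.3 CPM in the libraries labelled cyc8 snf2, 30.7, 34.4 and 25.4 in those labelled cyc8, 18.4 and 17.1 in those labelled snf2 and 77.2, 94.5 and 109.6 in wt. In CAR2 all mutant libraries lay below all wt libraries, and in YLR437C-A all lay above them. YLR437C-A rose by 2.29 ± 0.59 (edgeR adjusted p = 0.00544) in cyc8 snf2 against wt and by 2.32 ± 0.61 (edgeR adjusted p = 0.00659) in cyc8 against wt. CAR2 fell by 2.45 ± 0.14 (edgeR adjusted p = 5.73e-09) and by 1.64 ± 0.15 (edgeR adjusted p = 7.12e-07) in the same comparisons.

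YGR035C lies before the 5' end of YGR035W-A (chromosome VII, 556865 to 557518, minus strand). YGR035C had 9.13, 9.95, 14.1 and 10.7 CPM in the libraries labelled cyc8 snf2, 14.8, 18.3 and 14.1 in those labelled cyc8, 0.349 and 0.883 in those labelled snf2 and 10.6, 9.41 and 13.5 in wt. The libraries labelled snf2 lay far below the rest, and the other 3 groups lay close together. It fell by 4.19 ± 0.33 on the log2 scale in snf2 against wt (edgeR adjusted p = 5.14e-07) and rose by 4.16 ± 0.32 (edgeR adjusted p = 2.96e-07) in cyc8 snf2 against snf2, with -4.98 and 4.96 without snf2 replicate 2. The host had 4.88, 4.57, 4.47 and 5.03 CPM in the libraries labelled cyc8 snf2, 2.17, 2.49 and 2.3 in those labelled cyc8, 3.11 and 3.26 in those labelled snf2 and 1.16, 1.38 and 1.21 in wt and rose by 1.35 ± 0.18 (edgeR adjusted p = 7.51e-05) in snf2 against wt.

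YGR176W, without a RefSeq entry, lies in ATF2, an alcohol acetyltransferase gene. YGR176W had 1.61, 1.91, 1.85 and 2.81 CPM in the libraries labelled cyc8 snf2, 1.89, 1.16 and 0.598 in those labelled cyc8, 1.19 and 1.34 in those labelled snf2 and 0.481, 0.475 and 0.417 in wt. Its host ATF2 had 20.1, 23.7, 20.3 and 21.8 CPM in the libraries labelled cyc8 snf2, 72.6, 54.7 and 59.1 in those labelled cyc8, 12.1 and 13.4 in those labelled snf2 and 26.8, 29.5 and 27.2 in wt. Every mutant library had more YGR176W than every wt library, while ATF2 was highest in the libraries labelled cyc8 and lowest in those labelled snf2. In snf2 against wt YGR176W rose by 1.45 ± 0.43 (edgeR adjusted p = 0.018), a call lost without either snf2 library, and ATF2 fell by 1.12 ± 0.13 (edgeR adjusted p = 1.76e-05). Both rose in cyc8 against wt, YGR176W by 1.36 ± 0.41 (edgeR adjusted p = 0.0152), a call lost without cyc8 replicate 1, and ATF2 by 1.16 ± 0.11 (edgeR adjusted p = 1.15e-06).

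In other pairs the host changed and the nested model did not pass the threshold. YLR326W lies beyond the 3' end of TMA10, a gene of a ribosome-associated protein. TMA10 had 264, 364, 279 and 326 CPM in the libraries labelled cyc8 snf2, 517, 609 and 571 in those labelled cyc8, 15.9 and 14.4 in those labelled snf2 and 99.8, 77.4 and 34.1 in wt. YLR326W had 12.9, 12.1, 8.62 and 9.31 CPM in the libraries labelled cyc8 snf2, 7.9, 7.68 and 9.9 in those labelled cyc8, 10.9 and 10.1 in those labelled snf2 and 10.2, 9.51 and 8.22 in wt. The groups of TMA10 did not overlap, while those of YLR326W did. TMA10 rose by 3.01 ± 0.31 (edgeR adjusted p = 1.61e-05) in cyc8 against wt and by 4.34 ± 0.40 (edgeR adjusted p = 7.85e-06) in cyc8 snf2 against snf2, where YLR326W differed by -0.13 ± 0.17 and 0.04 ± 0.17. GRE2, a methylglyoxal reductase gene, rose by 3.41 ± 0.19 (edgeR adjusted p = 3.34e-08) and 3.92 ± 0.23 (edgeR adjusted p = 8.9e-08) in the same comparisons, and YOL150C, without a RefSeq entry, differed by -0.74 ± 0.41 and -0.58 ± 0.43. GRE2 averaged 326 ± 43.8 CPM in the libraries labelled cyc8 snf2, 346 ± 18.6 in those labelled cyc8, 21.5 ± 0.542 in those labelled snf2 and 32.5 ± 10.5 in wt, and YOL150C 0.824 ± 0.54 CPM in the libraries labelled cyc8 snf2, 0.874 ± 0.128 in those labelled cyc8, 1.27 ± 0.38 in those labelled snf2 and 1.45 ± 0.198 in wt (SD, n = 4, 3, 2 and 3).

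PGM2, the major phosphoglucomutase gene, and YMR105W-A, before its 5' end, rose together in cyc8 snf2 against snf2, by 2.15 ± 0.47 (edgeR adjusted p = 0.00335) and 2.07 ± 0.23 (edgeR adjusted p = 9.85e-06). YMR105W-A had 12.7, 8.84, 10.2 and 7.47 CPM in the libraries labelled cyc8 snf2, 6.07, 7.13 and 5.8 in those labelled cyc8, 2.3 and 2.34 in those labelled snf2 and 2.73, 1.76 and 2.25 in wt. It was highest in the libraries labelled cyc8 snf2, then in those labelled cyc8, with no overlap between these and the others. PGM2 had 162, 101, 146 and 103 CPM in the libraries labelled cyc8 snf2, 190, 294 and 229 in those labelled cyc8, 30.3 and 27.5 in those labelled snf2 and 340, 277 and 89.1 in wt, where the wt libraries spread widely. In cyc8 snf2 against wt PGM2 differed by -0.88 ± 0.36 (edgeR adjusted p = 0.0661), and fell by 1.27 without wt replicate 3.

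YMR122C and YMR244W were called in snf2 against wt and in cyc8 snf2 against cyc8, where their hosts were not. YMR122C lies before the 5' end of NCW1, a cell wall protein gene, and had 8.04, 5.33, 7.03 and 5.79 CPM in the libraries labelled cyc8 snf2, 1.83, 1.76 and 1.47 in those labelled cyc8, 6.35 and 5.99 in those labelled snf2 and 1.52, 1.38 and 1.21 in wt. Libraries labelled cyc8 snf2 and snf2, which share a background, lay above the other groups with no overlap. It rose by 2.17 ± 0.21 (edgeR adjusted p = 3.7e-06) in snf2 against wt and by 1.95 ± 0.19 (edgeR adjusted p = 6.38e-06) in cyc8 snf2 against cyc8, and differed by 0.29 ± 0.22 in cyc8 against wt and 0.08 ± 0.18 in cyc8 snf2 against snf2. YMR244W lies before the 5' end of ZRC1, a vacuolar zinc transporter gene, and had 1.45, 1.46, 2.17 and 1.79 CPM in the libraries labelled cyc8 snf2, 8.53, 5.67 and 7.04 in those labelled cyc8, 2.97 and 4.38 in those labelled snf2 and 0.401, 0.761 and 0.71 in wt. It rose by 3.50 ± 0.28 (edgeR adjusted p = 2.09e-07) in cyc8 against wt and by 2.56 ± 0.31 (edgeR adjusted p = 2.61e-05) in snf2 against wt, and fell by 2.05 ± 0.23 in cyc8 snf2 against cyc8 (edgeR adjusted p = 2.76e-05). ZRC1 averaged 352 ± 5.49 CPM in the libraries labelled cyc8 snf2, 362 ± 27.6 in those labelled cyc8, 227 ± 3.14 in those labelled snf2 and 289 ± 11.8 in wt and was called in none.

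The 54 models without a RefSeq entry were counted apart. In cyc8 against wt 8 (14.8%) rose and 9 (16.7%) fell, where 10.4% and 3.48% of all genes did. In snf2 against wt 2 (3.7%) rose and 15 (27.8%) fell (all genes: 4.25% and 5.40%), and in cyc8 snf2 against wt 9 (16.7%) rose and 7 (13%) fell (all genes: 9.71% and 3.97%). Between cyc8 snf2 and snf2 13 (24.1%) rose and 2 (3.7%) fell (all genes: 9.12% and 3.08%), and in cyc8 snf2 against cyc8 2 (3.7%) rose and 0 fell (all genes: 0.924% and 3.01%). Their median log2 fold changes were -0.38, -0.60, -0.18, 0.63 and 0.29 in this order, where those of all genes lay between -0.05 and 0.02. Summed over the 54, the level was 100.0 to 107 CPM in the libraries labelled cyc8 snf2 and 94.3 to 104 in wt. It was 109, 98.75 and 77.3 in those labelled cyc8, the last being replicate 3, and 66.1 and 71.3 in those labelled snf2. The libraries labelled snf2 lay below all others. They were also the lowest for the hosts of the 54, at 1.881e+04 and 1.876e+04 CPM against at least 2.572e+04 in any other library, and for the 86 models with a RefSeq entry, at 6452 and 6516 CPM against at least 7722.

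Among those that rose was YER158W-A in BUR6, which encodes a subunit of the transcription regulator NC2 (chromosome V, 491465 to 492091, plus strand; host interval 491282 to 492141). YER158W-A had 12.3, 9.7, 9.01 and 9.74 CPM in the libraries labelled cyc8 snf2, 14.7, 13.1 and 11.1 in those labelled cyc8, 0.524 and 0.883 in those labelled snf2 and 2.49, 1.85 and 2.46 in wt. The libraries labelled cyc8 snf2 and cyc8 lay above those of wt, and these above those labelled snf2. It rose by 2.50 ± 0.19 (edgeR adjusted p = 1.13e-07) in cyc8 against wt and by 3.86 ± 0.25 (edgeR adjusted p = 4.49e-08) in cyc8 snf2 against snf2, and fell by 1.70 ± 0.28 in snf2 against wt (edgeR adjusted p = 0.000407). BUR6 averaged 25.4 ± 4.31 CPM in the libraries labelled cyc8 snf2, 26.4 ± 1.65 in those labelled cyc8, 29.9 ± 0.0976 in those labelled snf2 and 15.9 ± 0.968 in wt and was not called. YGR068W-A in ART5, an adaptor gene for ubiquitination, had 4.41, 3.77, 5.81 and 5.09 CPM in the libraries labelled cyc8 snf2, 7.32, 6.61 and 5.29 in those labelled cyc8, 0.489 and 0.307 in those labelled snf2 and 1.04, 0.951 and 0.0417 in wt, with wt replicate 3 below the other wt libraries. It rose by 3.24 ± 0.45 (edgeR adjusted p = 8.01e-05) in cyc8 against wt and by 3.55 ± 0.55 (edgeR adjusted p = 0.000222) in cyc8 snf2 against snf2, and ART5 differed by 0.63 and 0.70.

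The 250 bases before YER158W-A lie at chrV:491215-491464 on the plus strand. It too is among the 19 nested models that rose in both comparisons of a cyc8 mutant within a background. The 250 bases lie mostly within the BUR6 interval and hold 1 word of Mig1, in capitals. Every upstream window printed here holds a searched word, and the shares given above, not these windows, tell how common such words are.
YER158W-A: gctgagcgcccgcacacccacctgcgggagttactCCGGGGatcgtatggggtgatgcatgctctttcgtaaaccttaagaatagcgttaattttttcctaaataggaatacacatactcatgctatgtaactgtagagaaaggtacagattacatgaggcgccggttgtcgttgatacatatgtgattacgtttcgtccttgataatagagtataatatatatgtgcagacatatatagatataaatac

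Some of the models that fell lie inside very strong hosts. YGL123C-A in RPS2, whose sequence is given above, had 2.9, 1.36, 1.79 and 1.03 CPM in the libraries labelled cyc8 snf2, 1.49, 1.37 and 0.414 in those labelled cyc8, 0.454 and 0.845 in those labelled snf2 and 2.53, 3.57 and 4.38 in wt. The wt libraries were the highest on average, and wt overlapped only cyc8 snf2 replicate 1. It fell by 1.69 ± 0.43 on the log2 scale in cyc8 against wt (edgeR adjusted p = 0.00624) and by 2.43 ± 0.52 in snf2 against wt (edgeR adjusted p = 0.00273). YGL102C in the ribosomal protein gene RPL28 had 0.934, 0.553, 0.256 and 0.379 CPM in the libraries labelled cyc8 snf2, 0.629, 0.73 and 0.276 in those labelled cyc8, 0.209 and 0.154 in those labelled snf2 and 1.44, 2.38 and 1.75 in wt, with all mutant libraries below all wt libraries. It fell by 3.30 ± 0.54 in snf2 against wt (edgeR adjusted p = 0.000368). YLR286W-A in the chitinase gene CTS1 had 0.415, 0.653, 0.192 and 0.379 CPM in the libraries labelled cyc8 snf2, 0.229, 0.258 and 0.184 in those labelled cyc8, 0.524 and 0.384 in those labelled snf2 and 1.64, 1.52 and 1.96 in wt, again with all mutant libraries below wt, and fell by 2.90 ± 0.38 in cyc8 against wt (edgeR adjusted p = 2.9e-05). RPS2 and RPL28 were called in none of the comparisons.

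YEL034C-A, in HYP2, the gene of translation factor eIF5A, had 1.3, 1.56, 0.894 and 0.92 CPM in the libraries labelled cyc8 snf2, 2.52, 1.29 and 1.75 in those labelled cyc8, 0.105 and 0.269 in those labelled snf2 and 1.28, 1.66 and 1.13 in wt. Both libraries labelled snf2 lay below all others. It fell by 2.84 ± 0.50 on the log2 scale in snf2 against wt (edgeR adjusted p = 0.000622) and rose by 2.65 ± 0.50 (edgeR adjusted p = 0.00071) in cyc8 snf2 against snf2, with -3.62 and 3.44 without snf2 replicate 2. HYP2 averaged 1595 ± 122 CPM in the libraries labelled cyc8 snf2, 1870 ± 237 in those labelled cyc8, 1282 ± 7.8 in those labelled snf2 and 1744 ± 177 in wt and was not called. The remaining models named by rank had low counts. In snf2 against wt YHR173C rose by 2.23, YJL156W-A by 1.34 and YLR412C-A by 1.04, the last not called without wt replicate 2 or snf2 replicate 2, and YJL188C fell by 2.53 and YBL006W-A by 1.74, both not called without snf2 replicate 1. YDL025W-A fell by 1.75 in cyc8 against wt, not called without wt replicate 2, cyc8 replicate 2 or cyc8 replicate 3, and YKL136W fell by 1.55. In cyc8 snf2 against wt YBR174C fell by 1.20 and YNL097W-A by 1.06, both not called without wt replicate 2 or cyc8 snf2 replicate 4, YBR174C also without cyc8 snf2 replicate 1 or 3. Between cyc8 snf2 and cyc8 YCL007C differed by 1.15, YMR245W by 1.09 and YFR035C by 1.06, each called with all libraries and not called when any 1 of 5 libraries was left out.

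YPR050C and SNO1 were among the 4 that fell in cyc8 snf2 against snf2. YPR050C, in MAK3, had 0.104, 0.101, 0.511 and 0.108 CPM in the libraries labelled cyc8 snf2, 0.458, 0.773 and 0.322 in those labelled cyc8, 0.698 and 0.653 in those labelled snf2 and 0.401, 0.808 and 0.918 in wt. Of the libraries labelled cyc8 snf2, replicates 1, 2 and 4 lay below all others and replicate 3 among them. It fell by 1.84 ± 0.56 in cyc8 snf2 against wt (edgeR adjusted p = 0.0151) and by 1.78 ± 0.61 in cyc8 snf2 against snf2 (edgeR adjusted p = 0.0266). Without cyc8 snf2 replicate 3 these were -2.69 and -2.63, and the call against snf2 was lost without any 1 of 5 other libraries. SNO1, a gene of vitamin B6 synthesis next to its partner SNZ1, had 0.83, 0.352, 0.894 and 0.216 CPM in the libraries labelled cyc8 snf2, 0.801, 0.73 and 0.921 in those labelled cyc8, 1.19 and 1.38 in those labelled snf2 and 0.882, 0.618 and 0.584 in wt. Both libraries labelled snf2 exceeded all others. It fell by 1.18 ± 0.41 in cyc8 snf2 against snf2 (edgeR adjusted p = 0.0279), a call lost without either snf2 library or without cyc8 snf2 replicate 2 or 4.

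Such models hold few of the reads of their site. Without scaling for length, YGL123C-A had 0.0122 to 0.110% of the counts of RPS2 in each library, and YGL102C 0.00639 to 0.0685% of those of RPL28. Over 45 nested models without a RefSeq entry in hosts of at least 5000 mean counts, whatever their own level, the nested counts were 0.0692, 0.0602, 0.0373 and 0.0481% of the host counts per length in the libraries labelled cyc8 snf2, 0.0528, 0.0538 and 0.0390% in those labelled cyc8 and 0.0391 and 0.0458% in those labelled snf2, against 0.0865, 0.107 and 0.0884% in wt. In these pooled counts every wt library lay above every mutant library. The median percentage over the 45 models did not separate them, with 0.0604, 0.122 and 0.0310% in wt. It was 0 to 0.0497% in the mutant libraries, with cyc8 replicate 2 above wt replicate 3. The part of the pooled difference in the calls was not tested. Of the 54 models 9 lie in such hosts, and 4 of the 9 fell in cyc8 against wt, 5 in snf2 against wt and 3 in cyc8 snf2 against wt, where 3.48%, 5.40% and 3.97% of all genes fell. Of the other 45, 5, 10 and 4 fell and 8, 2 and 9 rose. Among the 132 nested models with at least 1% of the host's level per length, 29 rose and 13 fell in cyc8 against wt, 8 rose and 16 fell in snf2 against wt, and 27 rose and 4 fell in cyc8 snf2 against snf2.

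**Figure D4:**
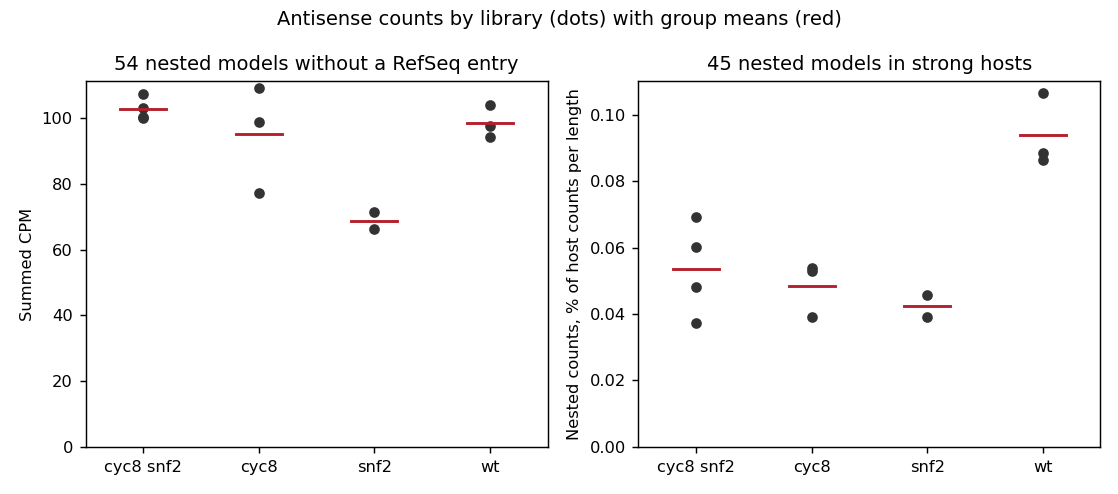
Dots are libraries and red bars group means. The left panel gives the summed CPM of the 54 nested models without a RefSeq entry, lowest in the libraries labelled snf2 at 66.1 and 71.3. The sums of their hosts and of the 86 other nested models were also lowest there. The right panel gives the pooled counts of 45 nested models without a RefSeq entry in strong hosts, as a percentage of host counts per length. This pooled percentage was highest in the wt libraries at 0.0865 to 0.107%.

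The comparisons within each background were then set side by side. Of the 30 nested models that rose in cyc8 against wt and the 30 that rose in cyc8 snf2 against snf2, 19 were shared, 63.3% of each list. Only 16 of the first list had a mean of at least 10 counts in wt, and 18 of the second in the libraries labelled snf2. The others passed the count minimum through groups where they are high. What this adds to the shared rises and to the correlations below was not tested. Over all genes, 381 of the 640 and 563 that rose were shared, 59.5% and 67.7% of these lists. Of the 17 and 4 nested models that fell, 1 was shared, YPR160C-A, 5.9% of the first list and 25.0% of the second, where 68 of the 215 and 190 genes that fell were shared, 31.6% and 35.8%. Across the 140 models, of which many have few counts, the log2 fold changes of these comparisons had a Pearson correlation of 0.633 and a Spearman correlation of 0.371, where those over all genes tested were 0.704 and 0.523. The interaction, the change in cyc8 snf2 against snf2 minus that in cyc8 against wt, was positive for 21 and negative for 7 of the 140 (all genes: 4.20% and 4.70%), with a median of 0.14 (all genes -0.01). Without snf2 replicate 1 the 21 became 11. Among the 54 models without a RefSeq entry 16 had a positive and 1 a negative interaction, the 16 being 7 of the 9 in hosts of at least 5000 mean counts and 9 of the other 45, and among the 86 with one 5 had a positive and 6 a negative interaction. The interaction sets 1 strain background against the other, so background and the snf2 allele cannot be told apart in it.

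**Figure D5:**
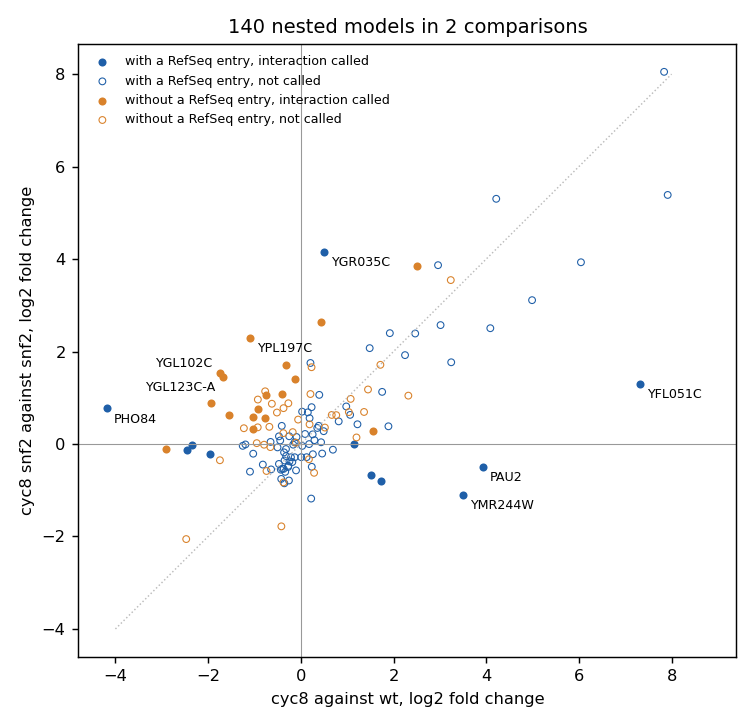
Each point is 1 of the 140 nested models, with its log2 fold change in cyc8 against wt on the horizontal axis and in cyc8 snf2 against snf2 on the vertical axis. The dotted line marks equal change, filled points have a called interaction, and YFL051C lies far below the line at 7.32 and 1.31 while YGR035C lies above it at 0.50 and 4.16.

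The interaction was most negative for YFL051C, at -6.02 ± 0.52 (edgeR adjusted p = 3.75e-06), with -6.67 without wt replicate 1. It was -4.60 ± 0.38 (edgeR adjusted p = 2.21e-06) for YMR244W and -4.42 ± 0.36 (edgeR adjusted p = 2.03e-06) for PAU2. All 3 rose in cyc8 against wt, but in cyc8 snf2 against snf2 YFL051C rose less, YMR244W fell by 1.10 ± 0.26 (edgeR adjusted p = 0.00326), a call lost without snf2 replicate 2, and PAU2 was not called. MET3 had an interaction of -2.53 ± 0.29 (edgeR adjusted p = 8.47e-05). The most positive value was that of PHO84, 4.97 ± 0.79 (edgeR adjusted p = 0.00112), with 5.62 without cyc8 replicate 1. YGR035C followed with 3.66 ± 0.39 (edgeR adjusted p = 2.04e-05), and with 4.43 without snf2 replicate 2. YPL197C in RPL7B, at 1 to 24 counts per library and with 53.7% repeated words, had 3.39 ± 0.89 (edgeR adjusted p = 0.0122), a call lost without snf2 replicate 2. For YGL102C it was 3.29 ± 0.73 (edgeR adjusted p = 0.00487) and for YGL123C-A 3.14 ± 0.68 (edgeR adjusted p = 0.00452). The interaction was not called for ATR2, at 0.21 ± 0.32 (edgeR adjusted p = 0.682), YPS3, at -0.08 ± 0.23 (edgeR adjusted p = 0.847), or HHY1, at 0.91 ± 0.66 (edgeR adjusted p = 0.351).

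The genes that degrade, end or repress antisense transcripts were looked at as a list of 31, among them XRN1, RRP6 of the exosome, MTR4 and PAP2 of TRAMP, NRD1, NAB3 and SEN1, which end short transcripts, and SET2, SET3 and ISW1, which act on chromatin. None of the 31 was called in any comparison, by edgeR or by DESeq2. At an unadjusted p below 0.05 with no minimum of change, edgeR had 1 higher and 16 lower in cyc8 against wt, 4 and 2 in snf2 against wt, 2 and 11 in cyc8 snf2 against wt, 4 and 12 in cyc8 snf2 against snf2, and 5 and 2 in cyc8 snf2 against cyc8. Medians were -0.23, 0.02, -0.10, -0.18 and 0.08 in this order, where those of all genes lay between -0.05 and 0.02. The share of all genes at an unadjusted p below 0.05 was not counted, so the counts at that rule have no background. Outside the interaction, the largest differences were -0.66 ± 0.12 for AIR2 of TRAMP in cyc8 snf2 against snf2 (edgeR adjusted p = 0.000573) and 0.63 ± 0.11 for PAP2 in snf2 against wt (edgeR adjusted p = 0.000756).

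Of the 10 most abundant nested models, PHO84, YPS3 and MET3 were called in at least 1 comparison and the other 7 in none. RPP2B, inside NKP1, had 2947, 2805, 2462 and 2448 CPM in the libraries labelled cyc8 snf2, 2406, 2639 and 2116 in those labelled cyc8, 1647 and 1636 in those labelled snf2 and 2513, 2132 and 2377 in wt. RPL14A, inside SFT1, had 2527, 2573, 2263 and 2069 CPM in the libraries labelled cyc8 snf2, 2494, 2677 and 1718 in those labelled cyc8, 1320 and 1395 in those labelled snf2 and 1980, 1814 and 2067 in wt. In both the libraries labelled snf2 lay below all others, by a log2 fold change of -0.51 ± 0.12 and -0.53 ± 0.16 against wt, which is under the minimum of change. SSA1 had 446, 560.3, 509 and 808 CPM in the libraries labelled cyc8 snf2, 660.2, 735 and 742 in those labelled cyc8, 831 and 869.8 in those labelled snf2 and 1155, 857 and 1321 in wt. FUR1, a uracil salvage gene inside ARP1, had 196, 188, 179 and 166 CPM in the libraries labelled cyc8 snf2, 205, 174 and 210.5 in those labelled cyc8, 173 and 173 in those labelled snf2 and 277, 265 and 260 in wt. In both, the wt libraries had the highest mean. RPL13A, inside RPS16B, averaged 866 ± 87.9 CPM in the libraries labelled cyc8 snf2, 826 ± 15.9 in those labelled cyc8, 538 ± 17.4 in those labelled snf2 and 744 ± 24.7 in wt. ARO2 of aromatic amino acid synthesis, inside RPL9A, averaged 262 ± 22.8 CPM in the libraries labelled cyc8 snf2, 223 ± 18 in those labelled cyc8, 236 ± 14.4 in those labelled snf2 and 238 ± 5.72 in wt. STE23, a protease gene of a-factor maturation inside ECM19, averaged 125 ± 4.56 CPM in the libraries labelled cyc8 snf2, 106 ± 3.16 in those labelled cyc8, 141 ± 2.55 in those labelled snf2 and 136 ± 11.8 in wt (SD, n = 4, 3, 2 and 3). The Swi-Snf subunit gene SWI3 is itself nested, in YJL175W, and averaged 33.5 ± 1.22 CPM in the libraries labelled cyc8 snf2, 31.1 ± 2.03 in those labelled cyc8, 35.2 ± 0.952 in those labelled snf2 and 44.1 ± 1.91 in wt. It was called in none, and its host, at most at 0.376 CPM in a library, lay near the limit that a count of 0 allows. YDR008C lies in TRP1, a gene with a mutant allele in the background of the libraries labelled cyc8 snf2 and snf2, and was not called either, at 2.93 ± 0.868 CPM in the libraries labelled cyc8 snf2, 2.38 ± 0.239 in those labelled cyc8, 2.18 ± 0.0174 in those labelled snf2 and 2.08 ± 0.365 in wt. The TRP1 transcript was not lost, at 54.8, 53.7, 47.5 and 37.2 CPM on average in the same order, and was called in none. CUE4, inside YML100W-A, was 1 of the 5 models highest above their host per length and averaged 53.4 ± 5.55 CPM in the libraries labelled cyc8 snf2, 52.9 ± 1.77 in those labelled cyc8, 30.4 ± 1.77 in those labelled snf2 and 26.8 ± 2.76 in wt. Its log2 fold changes, 0.98 ± 0.10 (edgeR adjusted p = 2.85e-06) in cyc8 against wt and 0.81 ± 0.11 (edgeR adjusted p = 4.65e-05) in cyc8 snf2 against snf2, stayed under the minimum of change. None of the 140 lies in CYC8 or SNF2.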

How the data were processed

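RNA-seq counts per gene model were taken as deposited by the authors, 1 column for each of 12 libraries, with the chromosome, start, end and strand of each model. The submitters' processing notes name STAR, featureCounts, deepTools and build R64; versions, annotation and strand setting of the counting are not given there. Intervals reach beyond the RefSeq genes, so counts include reads from outside them. The 12 ribosomal RNA models, with 2 counts in all, and 4 empty lines were left out.

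Counts were tested with edgeR 4.0.16 in R 4.3.3: TMM scaling, filterByExpr, and the robust quasi-likelihood test with all 12 libraries in 1 fit, Benjamini-Hochberg adjustment over 6171 genes, and a call at an adjusted p below 0.05 with a log2 fold change of at least 1 in size. Standard errors are the log2 fold change divided by the square root of the F statistic. The ratio of a nested model to its host was tested with limma 3.58.1 on the difference of their log2 CPM, with a prior count of 2, adjusted over 1841 pairs of models that overlap on opposite strands. DESeq2 1.42.0, other scalings, no filter, a replicate block and leaving out each library were tried as alternatives. Groups were taken from the labels. Scripts were tested on simulated data. Repeats were measured as 50-base words found elsewhere in the RefSeq R64 genome, from which the printed sequences were read.

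Named models are, for each comparison, up to 10 called models at either end, every model called in the opposite direction to its host, those with the most different ratios, the 10 most abundant, the 5 highest per length above their host, and those at the count minimum; further hosts and the models whose sequence is printed were chosen after their values were seen. The members and lists were chosen with earlier results of these data known. The depth of 16378131 to 27230568 counts leaves many nested models with few counts, so folds against a group with 1 to 3 counts are given with a counting interval. The interaction of 1 nested model is counted but not reported here by name.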

Additional observations from a re-analysis of the deposited data

Results flagged for a closer look

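YPR050C had 0.5111 CPM in cyc8 snf2 replicate 3, far from the other libraries of that group, which held 0.1005 to 0.1082 CPM. Of 58 models examined in these 4 libraries it was the only one, and chance sets about 1 in 20 such groups apart.

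The change in cyc8 snf2 against snf2 differed from that in cyc8 against wt, by edgeR's test of the interaction, for 28 nested models. It was the higher for 21, among them with differences on the log2 scale of 4.9651 for PHO84, 3.6615 for YGR035C, 3.3927 for YPL197C, 3.2915 for YGL102C, 3.1404 for YGL123C-A, 2.8115 for YJL188C, 2.7855 for YLR286W-A, 2.3334 for NFG1, 2.3253 for EEB1, 2.2145 for YEL034C-A, 2.179 for YKL136W, 1.8053 for YCL007C, 1.7461 for ECM12, 1.6786 for YDL114W-A, 1.6119 for YNL097W-A, 1.5392 for YPL222C-A, 1.4829 for YBL006W-A, 1.357 for YER158W-A, 1.3518 for YJR087W and 1.3292 for YLR198C. It was the lower for 7, with -1.1585 for VPS24, -1.2617 for YJL156W-A, -2.1822 for YHR173C, -2.5326 for MET3, -4.4218 for PAU2, -4.6044 for YMR244W and -6.0162 for YFL051C. The 21 became 11 without snf2 replicate 1. Among the models named by rank, YPL197C and YNL097W-A were not called without snf2 replicate 2, YEL034C-A, YER158W-A and YHR173C not without snf2 replicate 1, and YCL007C not without cyc8 replicate 2 or snf2 replicate 1. ECM12 lost its call without any 1 of 4 libraries, YBL006W-A without any 1 of 8, YJL188C and YJL156W-A without any 1 of 9 and VPS24 without any 1 of 10. Strain background and the snf2 allele cannot be told apart in this difference.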

How the results depend on the processing

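Of 1957 values of the 152 calls of named models under alternatives, 1801 kept the call, 156 lost it and 0 changed direction; the losses fell on 24 models. Without the minimum of change, at an adjusted p alone, 34 nested models were lower in cyc8 against wt, 14 higher and 33 lower in snf2 against wt, 30 lower in cyc8 snf2 against wt, 23 lower in cyc8 snf2 against snf2, 14 higher and 14 lower in cyc8 snf2 against cyc8, and 13 had a negative interaction. All genes were not counted at an adjusted p alone, and the shares of all genes given above are for the stricter rule. With the compared libraries only, 3 nested models were higher in cyc8 snf2 against cyc8. A replicate block gave 2 lower in cyc8 snf2 against snf2, against 4 without it, and 2 higher in cyc8 snf2 against cyc8, against 5. Whether the numbers pair the libraries was not settled. The 15 same-numbered pairs deviated with correlations of -0.2155 to 0.2955, 1 of them over 0.1, and 1 library correlated best with its own number. Deviations were taken from the group means, so these correlations are not independent. Between unlike numbers, wt replicate 3 had correlations of 0.5251 with cyc8 snf2 replicate 4 and -0.4831 with cyc8 snf2 replicate 1. Upper-quartile scaling shifted the median of all genes by -0.1228 in cyc8 against wt and -0.1267 in cyc8 snf2 against snf2.

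Leaving out 1 library at a time gave 29 to 33 higher and 13 to 17 lower in cyc8 against wt, 7 to 10 and 13 to 21 in snf2 against wt, 31 to 34 and 8 to 12 in cyc8 snf2 against wt, 23 to 32 and 1 to 4 in cyc8 snf2 against snf2, and 2 to 5 and 8 to 10 in cyc8 snf2 against cyc8, with 11 to 22 positive and 5 to 9 negative interactions. The lowest of these came without snf2 replicate 1 for the 13 lower in snf2 against wt and the 11 positive interactions, without snf2 replicate 2 for the 1 lower in cyc8 snf2 against snf2 (2 without snf2 replicate 1 or cyc8 snf2 replicate 4), and without cyc8 replicate 2 or 3 or cyc8 snf2 replicate 2 or 4 for the 2 higher in cyc8 snf2 against cyc8 (3 without cyc8 snf2 replicate 3). Ratio calls numbered 46 to 51 in cyc8 against wt (53 with all libraries), 29 to 36 in snf2 against wt (40), 42 to 49 in cyc8 snf2 against wt (46), 29 to 35 in cyc8 snf2 against snf2 (33) and 20 to 25 in cyc8 snf2 against cyc8 (25). The cause of these changes was not tested. Without an arm's second library, the remaining snf2 library was taken to vary like the other groups.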
